A study of Mus musculus with 4 samples.

Results

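Regulatory T cells are CD4 T cells that restrain other lymphocytes, and 725 of them were found among 25954 haematopoietic cells sorted from mouse melanomas. They were chosen by measured values: a cell had to hold at least 1 UMI (unique molecular identifier, 1 tag per captured transcript) of Cd3d, Cd3e or Cd3g, at least 1 UMI of Foxp3, and none of Cd8a, Cd8b1 or Csf1r. Of 10978 T cells, 406 passed this rule in the control IgG library, 101 under anti-PD-1, 176 under anti-PSGL-1 and 42 in the library that received both antibodies, called the combination. Lists of 4 values below keep that order of libraries unless they are named. B16-GP33, a melanoma line that carries a viral epitope seen by CD8 T cells, was grown under the skin of C57BL/6 mice. The mice received 200 ug of a control IgG, of an antibody to PD-1, of an antibody to PSGL-1, or of both antibodies, on days 8, 10 and 12 after tumour cell injection. Tumours were taken on day 18, and live CD45.2-positive cells were sorted. Each group is 1 library, and the labels do not say how many tumours entered it. The groups share strain, tumour line and schedule, and the age of the mice is not stated in the labels.

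The transcription factor Foxp3 sets the identity of these cells. They consume interleukin-2 through a high-affinity receptor whose alpha chain is Il2ra, take costimulatory ligands from antigen-presenting cells through Ctla4, and activate latent TGF-beta through Lrrc32 and integrin beta 8. In tumours they are known for an activated phenotype, with high TNF receptor family expression and suppression of effector T cells. PD-1, encoded by Pdcd1, and PSGL-1, encoded by Selplg, are both surface proteins that can lower T cell activation, and PSGL-1 is also the ligand of P-selectin.

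The kept cells of the 4 libraries had a median of 3760 to 8543.5 UMIs, lowest with IgG and highest with the combination. Regulatory T cells themselves had medians of 3858.5, 4926, 6079.5 and 5006 UMIs, and sums of 359398 to 2267313 UMIs per library. No regulatory T cell barcode was shared between libraries, while 5 to 13 kept barcodes were shared by any pair of libraries. Transcripts of other lineages were present. Some regulatory T cells held a UMI of Cd79a, Lyz2, C1qa, C1qb, Ncr1, Siglech or Flt3. Leaving these out kept 286 of 406, 75 of 101, 118 of 176 and 36 of 42 regulatory T cells. The 10 macrophage and monocyte markers summed to between 630 and 824 CPM (UMIs of a gene scaled to a total of 1000000 UMIs of the summed cells) in regulatory T cells, against 16995 to 20970 in Csf1r-positive cells without CD3 UMIs, called macrophages here. The 6 B cell markers summed to 2.78 to 21.7 CPM, the 10 melanoma markers to 5.56 to 18.2 CPM, and the 8 dendritic cell markers to 39.0 to 263 CPM. The 7 NK cell markers, which include Tyrobp of myeloid cells, summed to 259 to 456 CPM. Ncr1, Klrb1c and Eomes were at 0 with anti-PD-1 and with the combination, and Klra4 and Klra8 in every library but IgG. The 6 neutrophil markers summed to 18.1, 6.00, 98.1 and 5.56 CPM. S100a8 was at 0 with anti-PD-1 and with the combination, as were Adgre1 and Ms4a7 of the 10 macrophage and monocyte markers. Those 10 markers together summed to 824 CPM with anti-PD-1 and 673 CPM with the combination, against 630 CPM with IgG and 798 CPM with anti-PSGL-1. Both libraries had the smallest totals of regulatory T cell UMIs, at 666136 and 359398. A gene at 0 there therefore does not show fewer transcripts of other lineages.

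MHC class II transcripts of 7 genes summed to 10568, 5406, 9756 and 4686 CPM in regulatory T cells, against 19189 to 25196 CPM in macrophages. They were counted per cell as well. Cells with more than 20 UMIs of the MHC class II genes H2-Aa, H2-Ab1, H2-Eb1 and Cd74, which antigen-presenting cells use to display peptides and mouse T cells hardly make, were 19.2% (95% exact binomial interval 15.5 to 23.4), 7.92% (3.48 to 15.0), 19.9% (14.3 to 26.6) and 11.9% (3.98 to 25.6) of regulatory T cells. Among conventional CD4 T cells, defined by a Cd4 UMI with Foxp3 and Cd8 at 0, the shares were 13.0%, 6.82%, 8.15% and 0%. Among CD8 T cells they were 20.0%, 2.98%, 6.90% and 1.77%, so with IgG the share was like that of regulatory T cells. Regulatory T cells over the limit were deep, with a median of 8574 UMIs with IgG, against 3530.5 for the other regulatory T cells of that library, and 12369 to 13843 UMIs in the other libraries. CD8 T cells over the limit were shallower than the rest with IgG, at 3350.5 against 4543 UMIs, and deeper in the other 3 libraries. The limit was set after the data were seen, and results were recomputed without these cells. Beyond the recomputed values given below, their part in any other result was not tested. Because the limit itself counts MHC class II UMIs, recomputed values of MHC class II genes depend on it and are no independent check.

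The Foxp3 threshold was low. In the IgG library 165 cells passed with exactly 1 Foxp3 UMI, 104 with 2 and 137 with 3 or more; the corresponding counts were 30, 25 and 46 under anti-PD-1, 47, 47 and 82 under anti-PSGL-1, and 5, 16 and 21 in the combination. Foxp3 itself stood at 403, 411, 376 and 387 CPM, a value that the rule had selected on. The number of Foxp3-positive cells set aside for a Cd8 UMI was 158, 37, 102 and 42, and for a Csf1r UMI 111, 31, 96 and 8. Foxp3 UMIs were found in 5.02%, 0.903%, 2.85% and 0.903% of T cells with Cd8 and no Cd4 UMIs, at median depths of 4311, 9908, 7757 and 10716 UMIs. In macrophages, at median depths of 5174 to 8447 UMIs, the share was 0.161% to 0.451%. A Cd4 UMI, not asked for by the rule, was found in 202, 59, 112 and 21 of the regulatory T cells.

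The label held up against the 6 markers that the rule did not use. At least 3 of Ikzf2, Il2ra, Ctla4, Tnfrsf4, Lrrc32 and Izumo1r had a UMI in 89.7%, 96.0%, 91.5% and 97.6% of regulatory T cells, against 28.4%, 47.7%, 24.7% and 30.5% of conventional CD4 T cells. After each cell was thinned to 2000 UMIs the shares were 81.5%, 88.9%, 77.04% and 75.8% against 28.0%, 39.0%, 15.9% and 14.1%. Ikzf2, which encodes Helios, stood at 1369, 2026, 1411 and 1791 CPM in cells with exactly 1 Foxp3 UMI, at 1527, 1751, 1264 and 1213 CPM in cells with 3 or more, and at 489, 565, 116 and 134 CPM in CD4 T cells with none. Lrrc32, the surface anchor of latent TGF-beta, stood at 96.0, 91.5, 147 and 187 CPM just inside the threshold, at 149, 141, 122 and 84.3 CPM with 3 or more UMIs, and at 34.4, 23.8, 7.55 and 3.78 CPM just outside it. Cells with 1 UMI thus lay below those with 3 or more for Lrrc32 in the IgG and anti-PD-1 libraries, and above them in the other 2, where the combination had 5 such cells. The Foxp3-negative cells of the IgG and anti-PD-1 libraries held more of both transcripts than those of the other 2 libraries. Regulatory T cells whose Foxp3 was not captured cannot be told apart from conventional CD4 T cells in this comparison.

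In the paired test between classes, which set regulatory against conventional CD4 T cells within each of the 4 libraries, all 6 of these markers were higher in regulatory T cells (edgeR quasi-likelihood test, library as a block, adjusted p at most 0.05 over 8909 genes). Over all genes, 6.03% were higher in regulatory T cells and 8.63% lower at this threshold, with a median log2 difference of 0.00. Ikzf2 stood at 1519, 1901, 1284 and 1361 CPM in regulatory T cells. Every library was above its own conventional CD4 T cells, and the difference was 2.34 on the log2 scale (SE 0.30, edgeR adjusted p = 0.000153). Lrrc32, at 126, 132, 120 and 103 CPM, had the largest positive difference among the genes named by size, at 2.91 (SE 0.41, edgeR adjusted p = 0.000312). Tnfrsf4, the costimulatory receptor OX40, stood at 1358, 1746, 1210 and 1694 CPM against 588, 796, 435 and 652, a difference of 1.23 (SE 0.09). Ctla4 was at 1134, 1510, 1213 and 1135 CPM against 512, 853, 242 and 380. Both receptors were higher in 4 of 4 libraries. Il2ra, at 157, 269, 276 and 242 CPM, differed by 1.43 (SE 0.17) from conventional CD4 T cells, which stood at 73.5, 73.9, 80.5 and 94.5 CPM. Izumo1r, the folate receptor 4 of regulatory T cells, differed by 1.37 (SE 0.42, edgeR adjusted p = 0.0413). That call was lost in DESeq2 and without the IgG, the anti-PSGL-1 or the combination library.

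**Figure D1:**
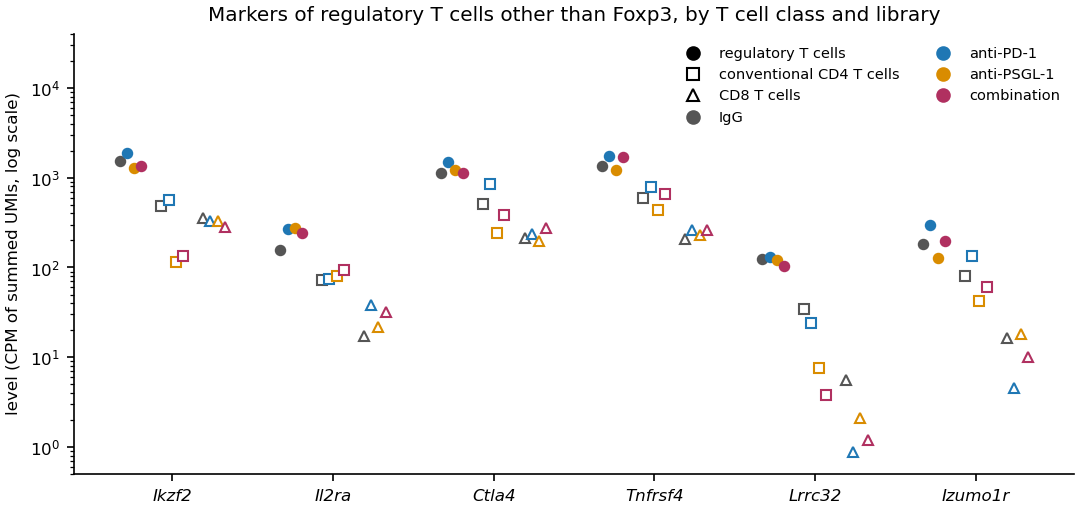
Levels of the 6 markers other than Foxp3, as CPM of summed UMIs on a log axis, in regulatory T cells (filled circles), conventional CD4 T cells (squares) and CD8 T cells (triangles) of each library (colours). For every marker the regulatory T cells of a library lie above the other classes of that library, from 103 to 132 CPM for Lrrc32 and from 1284 to 1901 CPM for Ikzf2.

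Regulatory T cells made up 4.29% (3.89 to 4.72, exact binomial interval), 1.93% (1.57 to 2.34), 2.56% (2.20 to 2.96) and 0.958% (0.692 to 1.29) of the kept cells. The share was highest with IgG and lowest with the combination, and the interval of the IgG library did not overlap any other. Of all T cells they were 10.1%, 5.55%, 6.03% and 1.91%, where the intervals of the 2 single-antibody libraries, 4.54 to 6.70 and 5.19 to 6.96, overlapped. As a ratio to IgG, the share of T cells was 0.552, 0.600 and 0.190 in the 3 treated libraries. These intervals cover the counting of cells only. With 1 library per group there is no replicate spread, so the treatments could not be tested against each other, here or in any comparison below. The shares are of sorted CD45.2-positive cells and do not give cells per tumour.

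The IgG library stayed highest and the combination lowest at equal depth. Thinned to 2000 UMIs per cell before the gate, regulatory T cells were 3.79%, 1.45%, 2.12% and 0.776% of kept cells, and 8.15%, 4.13%, 4.78% and 1.51% of T cells. Thinning left out 1756, 289, 502 and 131 kept cells that were too shallow, 45, 10, 10 and 3 of them regulatory T cells. The denominators differed too, since CD8 T cells numbered 1893, 1207, 1464 and 1756. Of regulatory and conventional CD4 T cells together, the regulatory cells were 58.8% (55.0 to 62.5), 53.4% (46.1 to 60.7), 33.1% (29.1 to 37.3) and 28.6% (21.4 to 36.6). On this denominator IgG and anti-PD-1 had overlapping intervals, and both libraries with anti-PSGL-1 lay below them. Thinning gave 58.5% (54.1 to 62.9), 48.3% (40.1 to 56.6), 36.8% (31.8 to 41.9) and 29.7% (21.4 to 39.1), where the anti-PD-1 interval overlaps that of anti-PSGL-1. Only the conventional class asks for a Cd4 UMI, so these percents are not shares of all CD4 T cells. Of T cells without Cd8 UMIs, regulatory T cells were 21.3% (19.5 to 23.2), 18.1% (15.0 to 21.5), 13.6% (11.8 to 15.6) and 12.5% (9.16 to 16.5).

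**Figure D2:**
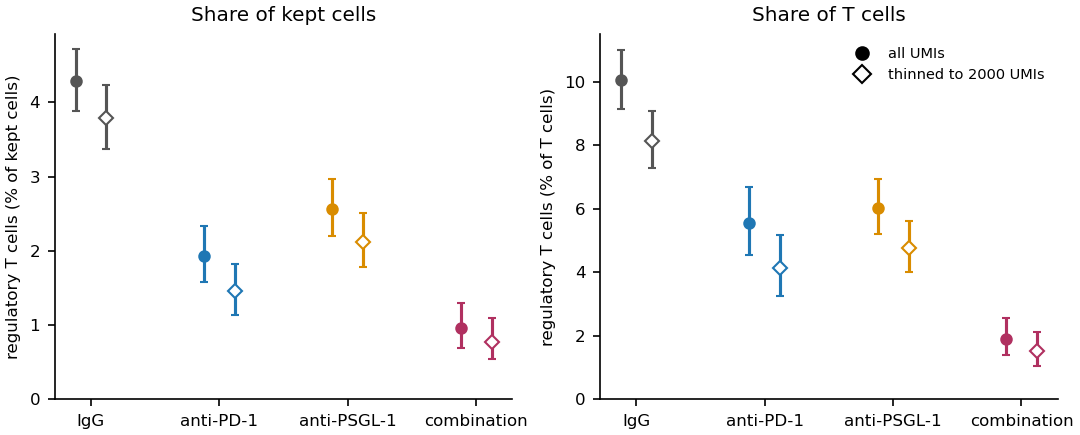
Regulatory T cells as a percent of kept cells (left) and of T cells (right) in each library, from all UMIs (filled) and after thinning each cell to 2000 UMIs (open), with 95% exact binomial intervals that cover counting error only. The IgG library is highest and the combination lowest in both panels, at 4.29% and 0.958% of kept cells.

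Against conventional CD4 T cells, the list of regulatory T cell factors and suppressive molecules had 13 of 19 tested members higher and 1 lower, with a median log2 difference of 1.16. The lists were chosen with results of these data known, and such counts describe them. Beyond the markers above, Ikzf4, which encodes the Helios relative Eos, stood at 92.2, 113, 90.4 and 55.6 CPM against 19.5, 47.7, 7.55 and 1.89, a log2 difference of 2.48. Itgb8, the integrin beta chain that frees active TGF-beta, was at 84.7, 131, 65.1 and 66.8 CPM and 2.27 higher (SE 0.56); without the combination library it no longer passed. Nrp1, the semaphorin receptor often used as a mark of thymus-derived regulatory T cells, was the exception. It stood at 46.3, 60.0, 25.9 and 64.0 CPM against 88.3, 124, 93.6 and 86.9, lower in 4 of 4 libraries, with a log2 difference of -1.20 (SE 0.19, edgeR adjusted p = 0.000852).

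Genes of activated and tissue regulatory T cells were also higher, in 11 of 23 members with 2 lower. Tnfrsf9, the receptor 4-1BB, stood at 866, 1123, 942 and 1085 CPM against 298, 374, 198 and 206, a difference of 1.85 (SE 0.15, edgeR adjusted p = 4.02e-06). Klrg1, a lectin receptor of terminally differentiated cells, was at 141, 165, 279 and 281 CPM against 62.3, 50.04, 34.7 and 47.2. Its log2 difference was 2.14. Itgae, the integrin CD103 that binds E-cadherin, was 2.24 higher, at 59.5, 42.0, 39.9 and 19.5 CPM. Ccr8, a chemokine receptor of tumour regulatory T cells, was scarce, at 33.1, 25.5, 26.6 and 55.6 CPM, yet above the 8.37, 4.77, 13.1 and 3.78 CPM of conventional cells by 1.81 (SE 0.35, edgeR adjusted p = 0.00329). The 2 lower members were Irf4, at -1.08, and Rora, at -0.68, both transcription factors of effector differentiation. The call of Irf4 was lost without the IgG, the anti-PD-1 or the combination library.

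Resting and central genes lay on the other side, with 0 of 11 higher and 8 lower and a median of -1.76. Tcf7, the transcription factor of naive and stem-like T cells, stood at 11.03, 0, 11.9 and 2.78 CPM against 86.5, 92.9, 122 and 75.6. Its log2 difference was -3.83 (SE 0.46, edgeR adjusted p = 0.000102). Bcl2, a survival factor, was at 11.03, 0, 14.0 and 5.56 CPM against 40.9, 52.4, 70.5 and 85.0. Both genes were lower in 4 of 4 libraries.

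Of the TNF receptor and costimulation list, 6 of 11 were higher and 2 lower. Cd27 was 1.43 higher, at 430, 569, 276 and 367 CPM, beside Tnfrsf4 and Tnfrsf9. Cd28, the main costimulatory receptor, went the other way at 241, 323, 227 and 228 CPM against 378, 410, 393 and 457, with a log2 difference of -0.75. Tnfrsf25 differed by -2.62, and its call was lost without IgG and without anti-PSGL-1. The inhibitory receptors had 4 of 12 higher and 1 lower. Lag3, a receptor for MHC class II, stood at 108, 465, 98.8 and 223 CPM against 57.7, 195, 23.2 and 68.0, a difference of 1.39 (SE 0.28). Both classes had their highest Lag3 level with anti-PD-1. Havcr2, which encodes TIM-3, was 1.16 higher and lost its call without the anti-PD-1 or the anti-PSGL-1 library. Btla differed by -0.96, a call lost without IgG and without anti-PSGL-1.

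The targets of the 2 antibodies differed little between the CD4 classes. Pdcd1 stood at 206, 389, 186 and 301 CPM in regulatory and 134, 295, 152 and 321 CPM in conventional CD4 T cells, a log2 difference of 0.25 (SE 0.13, edgeR adjusted p = 0.229). It passed the test when cells with UMIs of other lineages were left out, at 0.44, or those over the MHC class II limit, at 0.40. Selplg stood at 374, 387, 339 and 328 CPM against 469, 477, 365 and 435, lower in 4 of 4 libraries with a difference of -0.34 (SE 0.09, edgeR adjusted p = 0.0187). That call was lost without the IgG or the combination library and when cells with UMIs of other lineages were left out. In the selectin ligand pathway, which adds the sugars that selectins bind, 1 of 10 members was higher and 4 were lower. Fut7, the fucosyltransferase of these ligands, was the higher one at 12.3, 16.5, 8.41 and 22.3 CPM against 3.72, 4.77, 0.503 and 3.78, while the sialyltransferase St3gal6 differed by -2.68 and the galactosyltransferase B4galt1 by -1.25.

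Genes that T cells switch on after antigen receptor contact were lower in regulatory T cells in 8 of 15 tested members and higher in none. Without cells over the MHC class II limit, 2 of 14 were higher than in conventional CD4 T cells and 8 were lower. Egr1 stood at 46.3, 48.0, 86.9 and 33.4 CPM against 229, 136, 503 and 408. Cd69, an early activation marker, was at 97.9, 104, 90.4 and 58.4 CPM against 405, 291, 501 and 824, and the phosphatase Dusp2 at 153, 101, 113 and 120 CPM against 495, 400, 425 and 414. The log2 differences of these 3 genes were -2.52, -2.48 and -1.89, the largest downward ones called in the list. Immediate early genes respond to tissue digestion as well. In a separate list of such dissociation genes 3 of 16 were lower and 0 higher, among them Ier2 at -1.54 and Junb at -0.48. How much of the Egr1 and Cd69 differences goes with digestion was not tested.

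Cytokines and ligands of helper T cells were low in regulatory T cells. The list of T helper cytokines and factors had 4 of 7 tested members lower and 0 higher. Ifng, the cytokine interferon-gamma, stood at 23.4, 33.0, 28.7 and 30.6 CPM in regulatory T cells against 160, 210, 296 and 548 CPM, a difference of -3.31 (SE 0.33, edgeR adjusted p = 2.17e-05). Cd40lg, the ligand that licenses antigen-presenting cells, was at 3.09, 0, 4.20 and 0 CPM against 29.8, 33.4, 64.4 and 58.6. Csf2, which encodes GM-CSF, was at 0, 0, 0.7004 and 2.78 CPM, at most 1 UMI in any library, while conventional cells ranged from 1.86 to 112 CPM. TNF family ligands outside that list were low as well. Tnfsf8, the CD30 ligand, stood at 3.97, 4.504, 1.401 and 0 CPM against 74.4, 141, 141 and 128, and Tnfsf11, the RANK ligand, at 10.6, 7.51, 4.20 and 13.9 CPM against 66.0, 131, 131 and 132.

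The cytotoxic list split in direction. Gzmb, the granzyme that regulatory T cells can use against their targets, stood at 556, 700, 656 and 985 CPM against 321, 453, 280 and 620, and its difference of 0.79 passed with all libraries but not without anti-PSGL-1. Prf1, the pore-forming perforin, was 1.45 higher at 15.0, 87.1, 15.4 and 61.2 CPM. In contrast Gzmk was at 0 to 7.51 CPM against 33.7 to 46.5, with a difference of -3.45, and Fasl, the ligand of the death receptor Fas, at 2.78 to 13.2 CPM against 81.0 to 134, with a difference of -3.37. In all, 2 of 13 members were higher and 5 lower.

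Cell cycle genes were higher in regulatory T cells, in 11 of 20 members with 0 lower and a median of 0.80. Mki67, a marker of dividing cells, stood at 179, 170, 234 and 223 CPM against 89.3, 33.4, 149 and 77.5, a difference of 1.02 (SE 0.23, edgeR adjusted p = 0.00789) that no longer passed without the combination library. Mcm2, a replication licensing factor, was 1.12 higher. Homing and chemokine receptors were mostly lower, in 10 of 19 with 3 higher. Cxcr6 stood at 36.2, 111, 40.6 and 61.2 CPM against 256, 315, 299 and 421, with a difference of -2.56, and the integrin chain Itgb1 at 97.0, 57.0, 94.6 and 125 CPM against 362, 336, 512 and 376. S1pr1, the receptor for exit from tissue, differed by -2.10. Itgae and Ccr8 were among the higher ones.

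Of 20 type I interferon members 7 were lower and 1, Isg20, was higher by 0.73, and of 21 interferon-gamma response members 3 were higher and 1 lower, beside 6.03% higher and 8.63% lower over all genes. The lists were not tested against each other. Ifit3, an antiviral protein, stood at 7.94, 15.0, 4.90 and 8.35 CPM against 31.6, 38.1, 9.56 and 56.7, but its call was lost without the IgG or the combination library. Iigp1, a GTPase induced by interferon-gamma, stood at 129, 234, 153 and 270 CPM against 76.3, 224, 41.3 and 77.5, a difference of 1.02 whose call was lost without the anti-PSGL-1 or the combination library. When cells over the MHC class II limit were left out, 9 of 21 interferon-gamma members were higher. The interleukin-2 receptor and STAT5 list had 2 of 16 higher and 6 lower. Its higher members were the receptor chains Il2ra and Il2rb, the latter by 0.61, and Socs3 was among the lower, at -0.92, a call lost without the IgG or the combination library. In the hypoxia and glycolysis list 6 of 18 were higher and 1 lower, with the pyruvate kinase Pkm higher by 0.45. No MHC class II gene passed in either direction, and Cd74 stood at 4710, 2264, 4125 and 2187 CPM against 4350, 2333, 2414 and 52.9.

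Ranked by size among genes with the same sign in 4 of 4 libraries, the 10 highest log2 differences belonged to Lrrc32, Myo10, Tmem158, Ikzf4, Bmyc, Ikzf2, Itgb8, Itgae, Nrn1 and Klrg1. Myo10, an unconventional myosin, stood at 12.8, 79.6, 10.5 and 36.2 CPM against 5.58, 7.15, 1.01 and 1.89, with its highest level in anti-PD-1 regulatory T cells. Nrn1, which encodes neuritin, was at 26.9, 27.0, 25.2 and 47.3 CPM against 3.72, 7.15, 5.03 and 11.3. The 10 lowest were Csf2, Tnfsf8, Cd40lg, Ehd3, Tcf7, Tnfsf11, Gzmk, Fasl, Ms4a4b and Ifng. Ms4a4b, a membrane protein of effector T cells, differed by -3.35 (SE 0.13, edgeR adjusted p = 3.12e-09), at 125, 97.6, 93.9 and 125 CPM against 955, 1058, 880 and 1667.

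Against CD8 T cells, 16.9% of 8909 genes were higher in regulatory T cells and 13.3% lower (edgeR quasi-likelihood test, same fit). Regulatory T cells were shallower here, with medians of 3858.5 to 6079.5 UMIs against 4311 to 10704.5. All 6 markers were higher. Lrrc32 differed by 5.67 (SE 0.36, edgeR adjusted p = 9.63e-08), with CD8 T cells at 5.57, 0.886, 2.13 and 1.19 CPM, and Ikzf2 by 2.12, with CD8 T cells at 354, 327, 331 and 279 CPM. The secreted inhibitor of metalloproteinases Timp2, at 116, 219, 95.3 and 111 CPM against 1.64 to 8.21, and the tetraspanin Cd81, at 195, 192, 209 and 264 CPM against 4.65 to 18.0, were with Lrrc32 among the 10 largest differences upward. The effector and tissue list had 22 of 23 members higher and 0 lower, and the TNF receptor and costimulation list 11 of 11. Il10, the suppressive cytokine, stood at 65.3, 76.6, 82.0 and 109 CPM against 8.58, 1.03, 6.46 and 5.20, a difference of 3.90. Ebi3, a subunit of interleukin-35, was at 52.0, 43.5, 70.0 and 50.1 CPM against 1.51 to 5.84. Il1rl1, the interleukin-33 receptor ST2, was higher by 4.32, and Icos, a costimulatory receptor, by 2.22, at 790, 938, 637 and 643 CPM against 133 to 182.

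The granzyme list gave the reverse, with 12 of 13 members lower and 1 higher and a median of -2.97. Gzmf stood at 0.441, 6.00, 0 and 8.35 CPM in regulatory T cells against 60.0, 1260, 63.9 and 1178 CPM in CD8 T cells. Both CD8 groups that received anti-PD-1 held the high values, and the regulatory T cells of those libraries held 4 and 3 UMIs. Gzmc was at 2.78 to 8.82 CPM against 89.1 to 974. Eomes, a transcription factor of cytotoxic cells, was at 0 to 3.09 CPM against 41.9 to 96.2. The single higher member was Srgn, the granule proteoglycan serglycin, by 1.07.

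Receptors for the treatment antibodies were lower than in CD8 T cells. Pdcd1 stood at 206, 389, 186 and 301 CPM against 422, 575, 410 and 631, with a difference of -1.01 (SE 0.12, edgeR adjusted p = 2.62e-05), and Selplg differed by -0.43 (SE 0.09, edgeR adjusted p = 0.00177). Of the inhibitory receptors 2 of 12 were higher, Ctla4 by 2.36 among them, and 4 lower, Cd160 by -4.59 among them. Type I interferon genes were higher in 12 of 20 with 0 lower, and interferon-gamma response genes in 16 of 21 with 1 lower. Iigp1 differed by 3.91, with CD8 T cells at 5.36 to 19.2 CPM, and the GTPase Igtp by 1.85. Cell cycle genes were lower in 8 of 20 with 0 higher, so regulatory T cells lay between conventional CD4 and CD8 T cells in this list. Antigen receptor response genes were higher than in CD8 T cells in 7 of 15 and lower in 3, with a median of 0.78. All 7 MHC class II genes were higher than in CD8 T cells, as were 3 of 8 tested macrophage markers and 4 of 6 tested dendritic cell markers. Without the cells over the MHC class II limit, which is set on genes of this list, 3 of 5 tested MHC class II genes were higher. The median difference of the list was then 0.73 in place of 2.29. Cd74 differed by 2.43, and by 2.57 without those cells.

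**Figure D3:**
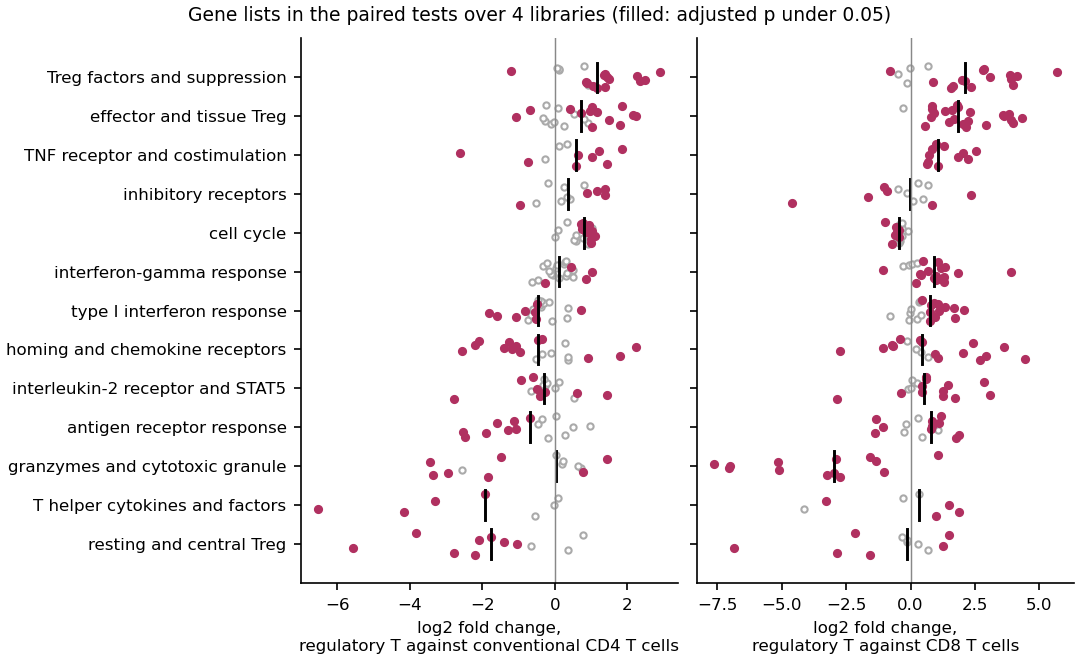
Log2 fold changes of the members of 13 gene lists in the paired tests over 4 libraries, regulatory against conventional CD4 T cells (left) and against CD8 T cells (right); filled points have an edgeR adjusted p under 0.05, open points do not, and black bars mark list medians. On the left the T helper and resting lists lie lowest, with medians of -1.92 and -1.76, and on the right the granzymes, with a median of -2.97.

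Regulatory T cells with a Ccr8 UMI, 63, 13, 28 and 13 cells, were set against the rest. At 4129 tested genes 0% were higher and 0% lower (edgeR quasi-likelihood test, library as a block), while 277 had an unadjusted p under 0.05, and DESeq2 called 0 higher and 1 lower. Ccr8 was seen in 15.5%, 12.9%, 15.9% and 31.0% of regulatory T cells, and in 3.30% to 7.83% at 2000 UMIs. Cells whose Ccr8 was not captured fall among the rest, so the lack of calls cannot show that the groups are alike. All 6 tested MHC class II genes had an unadjusted p under 0.05, with a median log2 difference of -2.55. Without the cells over the MHC class II limit, which is set on such genes, 3 were tested, with a median of -0.07. The cell cycle list had a median of 0.48, with 4 of 19 members at an unadjusted p under 0.05. Ccr8 detection depended on depth, as the shares at 2000 UMIs show, and the groups were not matched for depth. The part of depth in the cell cycle values was not tested.

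The composition of the regulatory T cells by single genes was compared at 2000 UMIs per cell, which left 361, 91, 166 and 39 cells. Lag3 was detected in 19.1% (15.2 to 23.6, exact binomial interval), 53.8% (43.1 to 64.4), 16.9% (11.5 to 23.4) and 30.8% (17.0 to 47.6). The anti-PD-1 interval overlapped only that of the combination. Klrg1 was detected in 23.0% (18.7 to 27.7), 17.6% (10.4 to 27.0), 41.6% (34.0 to 49.5) and 41.0% (25.6 to 57.9), so the 2 libraries with anti-PSGL-1 stood near 41%. The anti-PSGL-1 interval lay above those of IgG and anti-PD-1, whereas that of the combination overlapped theirs. In conventional CD4 T cells Klrg1 was detected in 4.88% to 10.9%, highest with IgG. Pdcd1 was detected in 31.0%, 47.3%, 30.7% and 46.2%, high in both libraries with anti-PD-1, and conventional CD4 T cells showed the same order of pairs at 16.1%, 28.0%, 17.4% and 28.2%.

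Icos varied as well, from 53.8% (37.2 to 69.9) with the combination to 80.2% (70.6 to 87.8) with anti-PD-1. With IgG it was 71.2% (66.2 to 75.8), an interval that overlapped those of all treated libraries. The anti-PD-1 interval lay above those of anti-PSGL-1, at 62.0% (54.2 to 69.5), and of the combination. In conventional CD4 T cells the share with Icos stayed between 67.9% and 71.8%. Cells with Mki67 or Top2a, which mark division, were 22.4%, 20.9%, 27.7% and 12.8%, and Tnfrsf9 was detected in 75.3%, 75.8%, 77.7% and 76.9%, the steadiest of the genes examined. Gzmb was detected in 46.5%, 50.5%, 41.6% and 46.2%, and Areg, the epidermal growth factor receptor ligand amphiregulin, in 34.1%, 33.0%, 34.3% and 38.5%. Il10 was detected in 8.59% (5.91 to 12.0) with IgG and 18.7% (11.3 to 28.2) with anti-PD-1, which overlap. Without thinning, Lag3 was detected in 32.5%, 76.2%, 35.8% and 52.4% and Klrg1 in 33.5%, 31.7%, 59.7% and 47.6%.

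**Figure D4:**
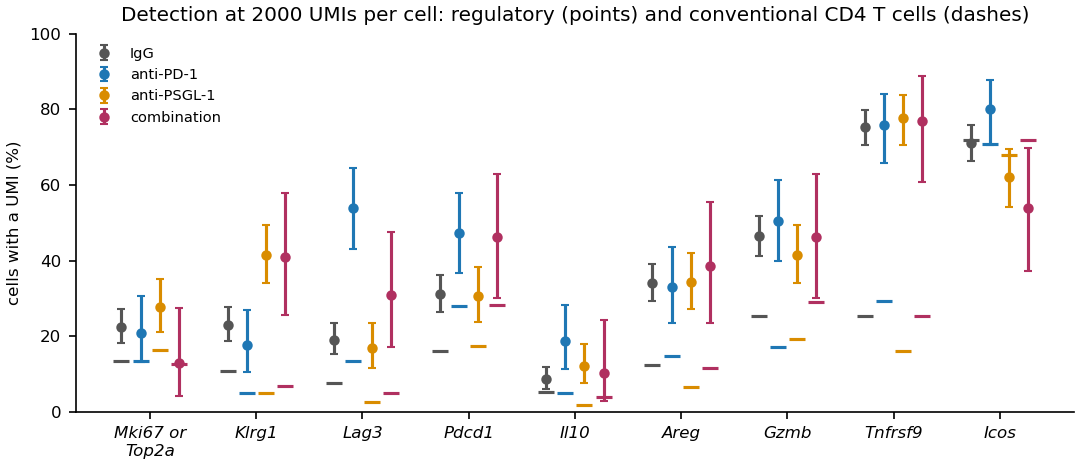
Percent of regulatory T cells with a UMI of each gene after thinning to 2000 UMIs, by library, as points with 95% exact binomial intervals; short dashes give conventional CD4 T cells of the same library. Lag3 reaches 53.8% with anti-PD-1, and Klrg1 lies near 41% in both libraries with anti-PSGL-1.

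The regulatory T cells of each treatment were next compared gene by gene with those of the IgG library, as ratios of CPM with exact 95% intervals for counting error. A gene was counted as higher or lower when the ratio passed 1.5-fold and either library held at least 50 CPM, and with 1 library per group such counts are descriptions without a test. The 3 comparisons share the IgG cells. Under anti-PD-1, 8.19% of 3016 measured genes were higher and 3.58% lower. The anti-PSGL-1 library had 2.71% of 2879 higher and 2.15% lower. The combination had 10.5% of 3079 higher and 6.85% lower, on 42 cells. Scaling by TMM factors turned the balance of the combination from 323 higher and 211 lower to 223 and 283, and moved that of anti-PD-1 from 247 and 108 to 194 and 147. All 3 libraries held more Il2ra than IgG, with ratios of 1.71 (1.42 to 2.05), 1.75 (1.51 to 2.03) and 1.54 (1.20 to 1.95). In conventional CD4 T cells the same ratios were 1.01, 1.10 and 1.29. Selplg, the target of one of the antibodies, was within 1.5-fold in all 3, with ratios of 1.03, 0.905 and 0.877.

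Part of the hypoxia and glycolysis list was higher in each treated library. Slc2a1, the glucose transporter GLUT1, stood at 38.4, 104, 73.5 and 114 CPM. Ero1l, an oxidoreductase of protein folding that hypoxia induces, was at 78.9, 159, 165 and 161 CPM, and the mitophagy receptor Bnip3 at 45.9, 75.1, 98.8 and 91.8 CPM. For all 3 genes the IgG library was lowest and the ratios to it ranged from 1.64 to 2.97. In conventional CD4 T cells the Slc2a1 ratios were 1.51, 1.19 and 1.52, those of Ero1l 0.756, 0.985 and 1.20, and those of Bnip3 0.452, 0.679 and 0.598. Of the Ero1l UMIs under anti-PD-1 39.6% lay in 1 cell, and without the top cell its anti-PD-1 ratio no longer passed 1.5-fold. Without cells over the MHC class II limit the same held for Bnip3 under anti-PD-1 and for Ero1l in the combination. Of the glycolytic enzymes in the list, Pgk1 and Eno1 were lower under anti-PD-1, with ratios of 0.358 and 0.509, and low in conventional CD4 T cells of that library too, with 0.686 and 0.546. Tpi1, triosephosphate isomerase, was higher in the combination at 726 CPM against 471, a ratio of 1.54, and did not pass 1.5-fold without its top cell or without cells over the MHC class II limit.

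With anti-PD-1, inhibitory receptors stood out in size, with 4 of 6 measured members past 1.5-fold upward and a median log2 ratio of 0.80 against 0.05 over all measured genes. Lag3 stood at 465 CPM against 108, a ratio of 4.29 (3.62 to 5.09). It was found in 77 of 101 cells and no cell held more than 7.42% of its UMIs. Havcr2 was at 125 CPM against 53.8, a ratio of 2.32, and Pdcd1 at 389 against 206, a ratio of 1.89 (1.62 to 2.20). The CD8 T cells of the same libraries had Lag3, Havcr2 and Pdcd1 ratios of 1.39, 1.48 and 1.36. Conventional CD4 T cells also held more Lag3 and Pdcd1 with anti-PD-1 than with IgG, by the CPM given above. In thinned conventional CD4 T cells, Lag3 was detected in 7.66% with IgG and 13.4% with anti-PD-1. Pdcd1 was detected in 16.1% and 28.0% of them. Higher Lag3 and Pdcd1 were thus not limited to regulatory T cells. Of the factors and suppressive molecules 7 of 18 were past 1.5-fold upward and 0 downward, Il2ra and Lag3 among them. Without the cells over the MHC class II limit the count was 4 of 17.

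With anti-PD-1, 2 of 5 measured cytotoxic members, 2 of 10 type I interferon members and 4 of 20 interferon-gamma members passed 1.5-fold upward, against 8.19% of all genes, and 0 passed downward. Nkg7, a cytotoxic granule protein, stood at 2094 CPM against 853, a ratio of 2.45 (2.29 to 2.63), and Prf1 at 87.1 against 15.0, a ratio of 5.81 in 18 cells. Ifi27l2a, an interferon-induced mitochondrial protein, was at 4209 CPM against 1923, a ratio of 2.19 (2.09 to 2.30), and Ly6a, the surface protein Sca-1, at 3178 against 1807, a ratio of 1.76. Conventional CD4 T cells gave Nkg7, Ifi27l2a and Ly6a ratios of 1.82, 1.95 and 1.63. Maf, a transcription factor that drives Il10, was at 781 CPM against 413, a ratio of 1.89, with 1.32 in conventional and 0.343 in CD8 T cells. Cxcr6 stood at 111 CPM against 36.2. Areg was at 1232 CPM against 560, a ratio of 2.20, while its share of cells at 2000 UMIs was 33.0% against 34.1%; the top cell held 18.5% of the anti-PD-1 UMIs.

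Some of the most extreme anti-PD-1 ratios rested on single cells. Inhba came from 1 cell, 97.3% of Cxcl1 UMIs and 97.1% of Slpi UMIs came from 1 cell each, and without the top cell the ratio of Slpi was 0.43 in place of 10.4. Spp1, which encodes osteopontin, was broader at 222 CPM against 38.4, a ratio of 5.79 (4.41 to 7.64) in 17 cells. Myo10 was at 79.6 CPM against 12.8 in 26 cells, a ratio of 6.22 (3.88 to 10.1). Lower with anti-PD-1 was the histone gene Hist1h2ap, at 96.1 CPM against 572. It was low in conventional CD4 T cells of that library too, with a ratio of 0.0232, and Gstp1, a glutathione transferase, likewise with 0.132 in regulatory and 0.169 in conventional cells. With 1 library per group a property of that library cannot be told apart from the treatment. All 6 measured MHC class II genes were lower, Cd74 with a ratio of 0.481, as were the dendritic cell genes Cd209a and Clec10a at 3.00 and 13.5 CPM. The dendritic cell markers as a list summed to 126 CPM with anti-PD-1 against 263 with IgG. Without cells over the MHC class II limit, which is set on such genes, 1 of 3 measured MHC class II genes was lower. Clec10a then had a ratio of 0.81.

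With anti-PSGL-1 no inhibitory receptor passed 1.5-fold among 6 measured, and Lag3 stood at 98.8 CPM against 108. Klrg1 was at 279 CPM against 141, a ratio of 1.98 (1.70 to 2.30). It came from 105 of 176 cells, the top cell held 3.52% of the UMIs, and leaving out each alternative set of cells gave ratios between 1.79 and 2.06. In conventional CD4 T cells the Klrg1 ratio was 0.557. The interleukin-2 receptor and STAT5 list had 4 of 14 higher and 1 lower, Il2ra and the interleukin-7 receptor Il7r among the higher, the latter at 189 CPM against 110. Klf2, a transcription factor of circulating cells, was at 190 CPM against 101, a ratio of 1.89 (1.58 to 2.26). Cd27 was lower at 276 CPM against 430, a ratio of 0.641.

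Metal and stress genes gave the largest anti-PSGL-1 ratios. The metallothioneins Mt2 and Mt1, which bind zinc, stood at 109 CPM against 14.6 and at 695 against 193, with ratios of 7.51 (5.13 to 11.3) and 3.60 (3.21 to 4.03), in 43 and 106 cells. CD8 T cells had Mt2 and Mt1 ratios of 0.759 and 0.999. The hypoxia and glycolysis list had 3 of 14 higher and 0 lower, the 3 genes given above. The heat shock genes Hspa1a and Hspa1b were at 484 CPM against 221 and at 277 against 98.8, in 31 and 25 cells, and 5 of 15 dissociation genes were higher, and the part of digestion stress in these values was not tested. Without dividing cells the ratio of Hspa1a was 0.751. Cxcl2, at 372 CPM, had 39.7% of its UMIs in 1 cell and a ratio of 1.20 without cells over the MHC class II limit.

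Type I interferon genes were lower with anti-PSGL-1, in 3 of 8 measured members with 0 higher and a median of -0.56 against -0.07 over all genes. Isg15, the ubiquitin-like modifier, stood at 138 CPM against 313, a ratio of 0.441 (0.374 to 0.517) over 74 cells, and Zbp1, a nucleic acid sensor, at 103 against 164. Isg20, an exonuclease, was at 109 CPM against 170, a ratio of 0.638. Conventional CD4 T cells gave Isg15, Zbp1 and Isg20 ratios of 0.618, 0.579 and 0.432. Leaving out cells over the MHC class II limit also gave 3 of 8 lower, Isg15 and Zbp1 among them and Isg20 not. The chemokine Cxcl10 was lower too, at 77.05 CPM against 227, but its ratio was 1.12 when cells with UMIs of other lineages were left out. MHC class II genes did not pass 1.5-fold, 0 of 6 in each direction.

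**Figure D5:**
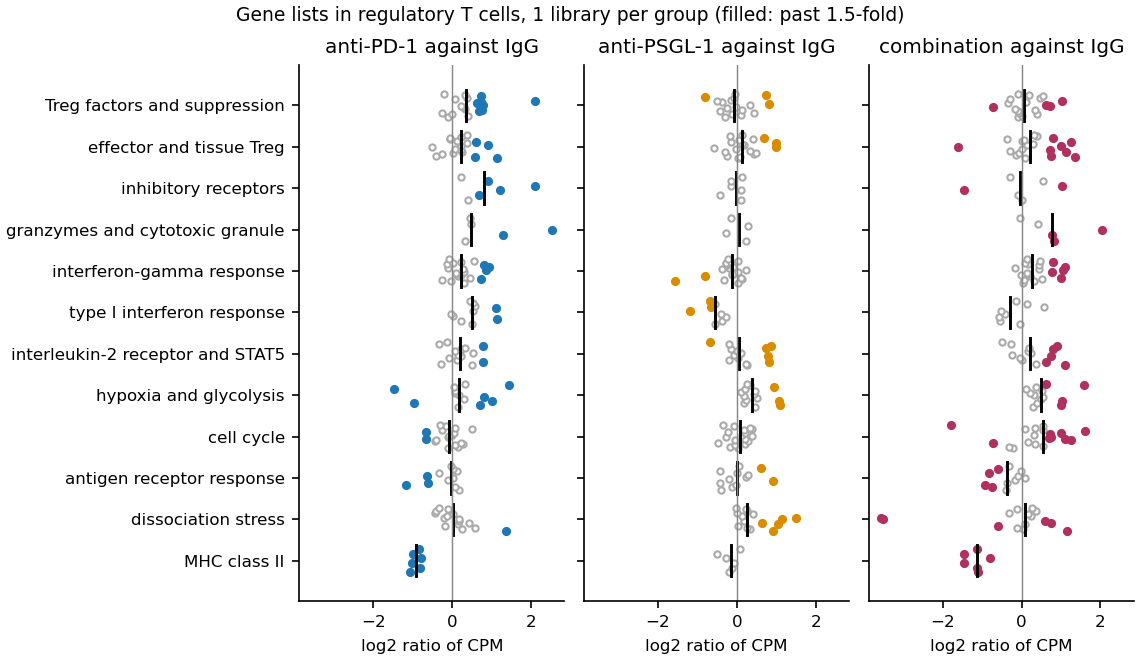
Log2 ratios of CPM in regulatory T cells of each treated library to the IgG library for the measured members of 12 gene lists; filled points lie past 1.5-fold, black bars mark list medians, and there is 1 library per group. Inhibitory receptors have a median of 0.80 with anti-PD-1, type I interferon genes a median of -0.56 with anti-PSGL-1, and MHC class II genes a median of -1.13 with the combination.

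The combination had only 42 regulatory T cells, and single cells carried many of its values. Of Ccl2 UMIs 96.2%, of Prf1 UMIs 68.2% and of Upp1 UMIs 61.1% lay in 1 cell each, and when the top cell of each gene was left out 134 genes were higher in place of 323. The effector and tissue list had 7 of 20 members higher and 1 lower, and 3 of 18 higher without the top cells, namely Gata3, Klrg1 and Batf. Klrg1 was at 281 CPM against 141, a ratio of 1.99 (1.58 to 2.50) in 20 cells. Batf, a transcription factor of tissue regulatory T cells, stood at 401 CPM against 156, a ratio of 2.57 (2.11 to 3.13) in 30 of 42 cells. Gata3 was at 161 CPM against 73.7, a ratio of 2.19 (1.60 to 2.97) in 26 cells. Lag3 was at 223 CPM against 108, a ratio of 2.05, with 25.0% of its UMIs in 1 cell. Havcr2, in contrast, was at 19.5 CPM against 53.8, found in 7 cells, and Itgae at 19.5 against 59.5 in 5 cells.

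Other gene groups of the combination were less uniform. Iigp1 stood at 270 CPM against 129 and 5 of 20 interferon-gamma response genes were higher with 0 lower, also without the top cells. The Slc2a1 UMIs came from 21 cells. Gzmb, at 985 CPM against 556, had a ratio of 1.77, and of 1.54 without its top cell, while its share of cells at 2000 UMIs stood at 46.2% against 46.5%. In the cell cycle list 7 of 19 were higher and 2 lower. Rrm2, a subunit of ribonucleotide reductase, was at 228 CPM against 75.4 in 6 cells, and the mitotic gene Ube2c at 39.0 against 134 in 7 cells. Rrm2 and Ube2c thus went in different directions, each on few cells. Antigen receptor response genes were lower in 4 of 11. Hspa1a stood at 19.5 CPM against 221 and Hspa1b at 8.35 against 98.8, each found in 2 or 3 cells. All 6 MHC class II genes were lower, H2-Ab1 at 723 CPM against 1983, Il1b was at 100 CPM against 589, and Mgl2 had 0 UMIs against 51.6 CPM. Dendritic cell markers summed to 39.0 CPM against 263, with Flt3, Xcr1, Clec9a, Siglech and Ccl22 at 0; the part of such cells in these values was not tested. When cells with UMIs of other lineages were left out the ratio of H2-Ab1 was 1.89.

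Between the treated libraries, 12.4% of 3190 genes were higher and 12.4% lower in the combination than with anti-PD-1, and 15.4% of 3071 were higher and 7.65% lower than with anti-PSGL-1. Lag3 was lower in the combination than with anti-PD-1, with a ratio of 0.478 (0.369 to 0.613), and higher than with anti-PSGL-1, with a ratio of 2.25 (1.69 to 2.99). Areg, Havcr2 and Ifi27l2a were also below anti-PD-1, with ratios of 0.483, 0.156 and 0.307, and Gata3 was above it with 2.15. Against anti-PSGL-1, Batf, Nkg7, Pdcd1 and Isg20 had ratios of 2.41, 2.06, 1.61 and 2.33. Hist1h2ap and Gstp1, which were low in both CD4 classes of the anti-PD-1 library, were higher in the combination than with anti-PD-1 by 4.95 and 9.80 times. The comparison with anti-PSGL-1 is sensitive to scaling too. TMM factors moved its median log2 ratio from 0.16 to 0.02 and its counts from 474 higher and 235 lower to 287 and 356.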

How the data were processed

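Single-cell libraries of CD45.2-positive tumour cells, 1 for each of 4 groups, were deposited as UMI counts per gene and barcode. Per the submitters' processing notes they were made with Cell Ranger 3.1.0 and build mm10, and per the labels dead cells were removed by sorting. The deposited counts were used as they are (27998 genes, 0 columns outside the samples). Barcodes under 300 genes, over 10% mitochondrial UMIs or over 60000 UMIs were dropped. Scrublet at its own threshold marked 1, 84, 0 and 42 cells and was not used to filter; cells with the highest scores, 0.8% per 1000 cells, were left out as an alternative.

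UMIs were summed per class and library. Classes were tested with edgeR 4.0.16 (R 4.3.3): TMM, filterByExpr, the quasi-likelihood test with library as a block (the same library supplies each class), Benjamini-Hochberg threshold 0.05; genes of the gates are not counted. DESeq2 1.42.0 was an alternative. The script was tested on simulated data. Treatments, with 1 library each, were compared as CPM ratios with exact conditional Poisson intervals and shares with Clopper-Pearson intervals (95%, counting error only), in Python 3.11.15 with scanpy 1.11.5 and scipy 1.17.1. Levels compare a gene between samples, not genes with each other.

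The members, the 17 gene lists and the tests were chosen with earlier results of these data known. Named genes were the 7 markers, Pdcd1 and Selplg; for each treatment comparison the 5 largest ratios each way by the interval bound nearest to 1; for each class test the 10 largest log2 fold changes each way, with the same sign in 4 libraries and at least 20 CPM; and from every list at most 3 members in each direction. T cell receptor, ribosomal, mitochondrial, Y-linked and predicted genes were left out. Some genes that this rule names are not reported here.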

Additional observations from a re-analysis of the deposited data

How the results depend on the processing

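The call counts between classes depended on single libraries. Leaving out each library in turn gave 276 to 450 genes higher and 452 to 685 lower than in conventional CD4 T cells, against 537 and 769. The lowest counts, 276 and 452, came without anti-PSGL-1; without IgG they were 315 and 472, and without the combination 295 were higher. Against CD8 T cells the range was 948 to 1445 higher and 663 to 1123 lower, with 948 without anti-PSGL-1 and 663 without IgG, against 1504 and 1189. The replicate block is the library itself. With no replicate block, 408 and 620 genes passed against conventional CD4 T cells and 1338 and 974 against CD8 T cells; Lag3, Isg20, Prf1, Gzmb, Havcr2, Myo10 and Iigp1 then lost their calls against conventional CD4 T cells, as did Cd74 against CD8 T cells. For Ccr8-detected cells, leaving out libraries gave 0 to 1 higher and 0 to 10 lower, no filter on low counts 3 higher and 69 lower, and cells of other lineages left out 8 lower; DESeq2, no block and doublets left out each gave 1 lower. Among the genes named in the text, no fold change between classes reversed in any setting run, while 36 values lost and 2 gained a call. The other tested genes were not checked for this.

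Thinning gave shares of kept cells of 3.79%, 1.45% and 2.12% and of T cells of 8.15%, 4.13% and 4.78% for IgG, anti-PD-1 and anti-PSGL-1. Asking for 2 or more Foxp3 UMIs gave 2.55%, 1.36% and 1.88% of kept cells and 5.97%, 3.90% and 4.42% of T cells. Leaving out cells over the MHC class II limit gave 3.47% (IgG) and 2.05% (anti-PSGL-1) of kept cells.

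Counts of genes past 1.5-fold, higher and then lower, came to 115 and 49 (anti-PD-1), 35 and 21 (anti-PSGL-1), 130 and 68 (combination), 163 and 157 (combination against anti-PD-1) and 210 and 102 (against anti-PSGL-1) at a minimum of 100 CPM. Thinned cells gave 477 and 298, 233 and 276, 904 and 497, 971 and 707, and 1059 and 521. Without the top cell of each gene they were 163 and 164 (anti-PD-1), 134 and 341 (combination), with 250 and 262 higher in the last 2 comparisons. Equal weight for every cell gave 389 higher (anti-PD-1), 128 lower (anti-PSGL-1) and 487 higher (combination). Without dividing cells 200 were lower (anti-PD-1), 161 higher and 171 lower (anti-PSGL-1), 552 higher and 373 lower (combination), 611 higher (against anti-PD-1) and 404 lower (against anti-PSGL-1). Leaving out cells of other lineages gave 163 and 158 lower for the single antibodies, and for anti-PSGL-1 2 Foxp3 UMIs gave 105 lower and the MHC class II limit 104. TMM factors gave 287 and 356 for the last comparison.

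These ratios changed direction. Inhba was 0 with 2 Foxp3 UMIs and without its top cell. Slpi was 0 without other lineages, 0.405 without MHC class II cells and 0.43 without its top cell. Cxcl1 was 0.844 without doublets. Ccl2 was 0.284 without doublets, 0.887 without other lineages, 0.342 without MHC class II cells and 0.227 without its top cell. Without other lineages Cxcl10 was 1.12 (anti-PSGL-1) and H2-Ab1 1.89 (combination). Without dividing cells Hspa1a was 0.751 (anti-PSGL-1), Prf1 0.542 (combination against anti-PSGL-1) and Rrm2 0 in all 3 combination comparisons. The cause was not tested beyond these settings. Another 910 recomputed ratios stayed within their interval and 272 left it with no change of direction in a called value. Depth limits the combination most, with 359398 UMIs in 42 cells, where 1 UMI is worth 2.78 CPM. The MHC class II limit and leaving out the top cell were chosen after seeing the data.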
